A study of Mus musculus with 7 samples.

Results

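Eph receptors are the largest family of receptor tyrosine kinases, and their ligands, the ephrins, are themselves held in the membrane of the neighbouring cell. The set described here holds 10 genes of this system that are of interest in the intestinal crypt: the B-class receptors Ephb2, Ephb3, Ephb4 and Ephb6, the A-class receptors Epha1 and Epha2, the B-class ligands Efnb1 and Efnb2, and the A-class ligands Efna1 and Efna4. They were chosen by name, and their levels were read from every probe set that the platform annotation pairs with 1 gene symbol equal to theirs. Of the 10 genes 9 had such a probe set, 17 probe sets in all, out of 28898 probe sets and 17097 genes named in this way; Ephb2 had none, and its level is not analysed here. All 9 lay above the filter on low levels.

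The arrays profiled tumour cells of the mouse colon. All animals carried 1 Tomato reporter allele of Mex3a, a floxed Apc allele (APC fl/+) and Villin CreERT2, a tamoxifen-inducible Cre recombinase driven by the promoter of an epithelial gut protein; the other Mex3a allele was wild-type (Tom/+, WT, 4 arrays) or floxed (tom/flox, KO, 3 arrays). Every animal received 4 injections of tamoxifen and then 2% dextran sulfate sodium, a polymer that injures the colon epithelium, in the drinking water for 5 days, and adenomas were taken 2 months later. Cells positive for Epcam and Tomato were sorted, a selection for cells that hold the Mex3a reporter, and RNA of 2000 cells was amplified over 24 cycles. The sources used here do not give the age or sex of the animals, or whether each array is a separate animal or a pool, so that p-values measure only the spread between these arrays, which may be technical.

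In the intestine, B-class receptors and ligands form opposing gradients: Ephb2 and Ephb3 are targets of beta-catenin and TCF and are high at the crypt base, while ephrin-B ligands increase towards the surface. Contact between a cell with the receptor and a cell with the ligand sends signals both ways and repels the cells from each other, which keeps stem and Paneth cells in place and confines early adenoma cells. Adenomas that lack Apc activity are known to express EphB receptors, and many carcinomas lose them. The comparison asks whether loss of Mex3a, which encodes an RNA-binding protein of intestinal progenitors, goes with other levels of these genes.

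The labels were checked on the targeted gene and on cell type markers. The level of Mex3a was 7.41, 7.38, 7.50 and 7.01 in WT against 6.18, 6.29 and 6.07 in KO, a log2 difference of -1.13 (SE 0.13; limma, adjusted p = 0.142), so that the targeted gene itself was not called, and without overlap on either of its probe sets. It was called with array weights (limma, adjusted p = 0.0269) and without WT replicate 4 (limma, adjusted p = 0.0455). The sources used here do not say whether its probe sets lie in the floxed part. All 12 epithelial markers lay above the level filter, with Epcam between 11.87 and 11.99. Of the endothelial markers 4 of 12 lay below it, Tek and Emcn among them, while Pecam1, Cdh5 and Kdr lay above it. Also below it were 4 of 12 fibroblast markers and 3 of 11 measured leukocyte markers. Of the leukocyte markers Ptprc and Cd3e lay below it, and Cd79a and Csf1r above it. By construction the filter leaves out 25% of all genes, so these shares are near that of any gene, and the other 8 of each list lay above it. The brightest marker of each was Ramp2 at a mean level of 12.5, Fbln1 at 10.5 and Lyz2 at 12.2. The mean level of the endothelial list was 6.36 to 6.45 in WT and 6.24 to 6.39 in KO, that of the fibroblast list 6.13 to 6.71 and 6.11 to 6.72, and that of the leukocyte list 6.54 to 6.60 and 6.59 to 6.72. Ephb4 and Efnb2 are also genes of blood vessels, and the part of endothelial RNA in their levels was not tested. In sorted bulk cells, fewer cells of a type and less RNA per cell cannot be told apart.

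The sequence upstream of 2 genes is shown, 1 chosen for a motif match and 1 for its difference between the genotypes. Neither is named above as a Wnt target. The windows come from RefSeq (GRCm38.p6), which gave 11 windows for the 10 genes, each from 250 bases before to 50 bases after a transcript start. The motifs CTTTGAT and CTTTGAA, bound by TCF factors, were searched on both strands. At least 1 of them is present in 8.65% of all 32851 such windows and in 1 of the 11, that of Epha2, where CTTTGAA lies in the forward orientation at bases -209 to -203; this match is in capitals. The windows of Ephb2 and Ephb3 hold neither, which says nothing of TCF binding elsewhere. The 250 bases before the start are printed for Epha2 (chr4:141300971-141301220, plus strand), the gene with the match, and for Efnb1 (chrX:99135811-99136060, plus strand), the ligand with the largest difference below.
Epha2: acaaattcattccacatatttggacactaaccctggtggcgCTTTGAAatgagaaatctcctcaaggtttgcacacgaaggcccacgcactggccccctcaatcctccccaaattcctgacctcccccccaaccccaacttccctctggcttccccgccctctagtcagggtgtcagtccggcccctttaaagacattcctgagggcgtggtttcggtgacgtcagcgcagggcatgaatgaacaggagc
Efnb1: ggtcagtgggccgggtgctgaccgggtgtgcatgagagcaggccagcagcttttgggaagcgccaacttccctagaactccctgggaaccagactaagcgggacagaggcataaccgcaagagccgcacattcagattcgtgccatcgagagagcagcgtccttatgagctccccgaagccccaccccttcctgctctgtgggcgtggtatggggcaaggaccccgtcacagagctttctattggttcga

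No Eph receptor or ephrin of the set differed between KO and WT past the threshold. In the limma fit, 0 of the 9 genes were called at an adjusted p under 0.05, where the background was 0% of 12822 genes. At an unadjusted p under 0.05 there were also 0 of 9, against 11.4% of all genes, and 0 of 9 had arrays without overlap between the genotypes, against 5.91%. On the brightest probe sets the largest difference was -0.16, the median size was 0.07 against 0.09 over all genes, and 6 of the 9 lay below 0, as did 56.1% of all genes. Over these 9 probe sets the lowest bound of a 95% interval was that of Efnb1, a level 1.35-fold lower in KO, and the highest that of Efna4, 1.27-fold higher. The dimmer probe sets of Efnb2 had higher upper bounds, up to 1.57-fold. Two-sided exact permutation p-values over the 35 splits of the arrays were 0.171 or more for each gene.

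**Figure D1:**
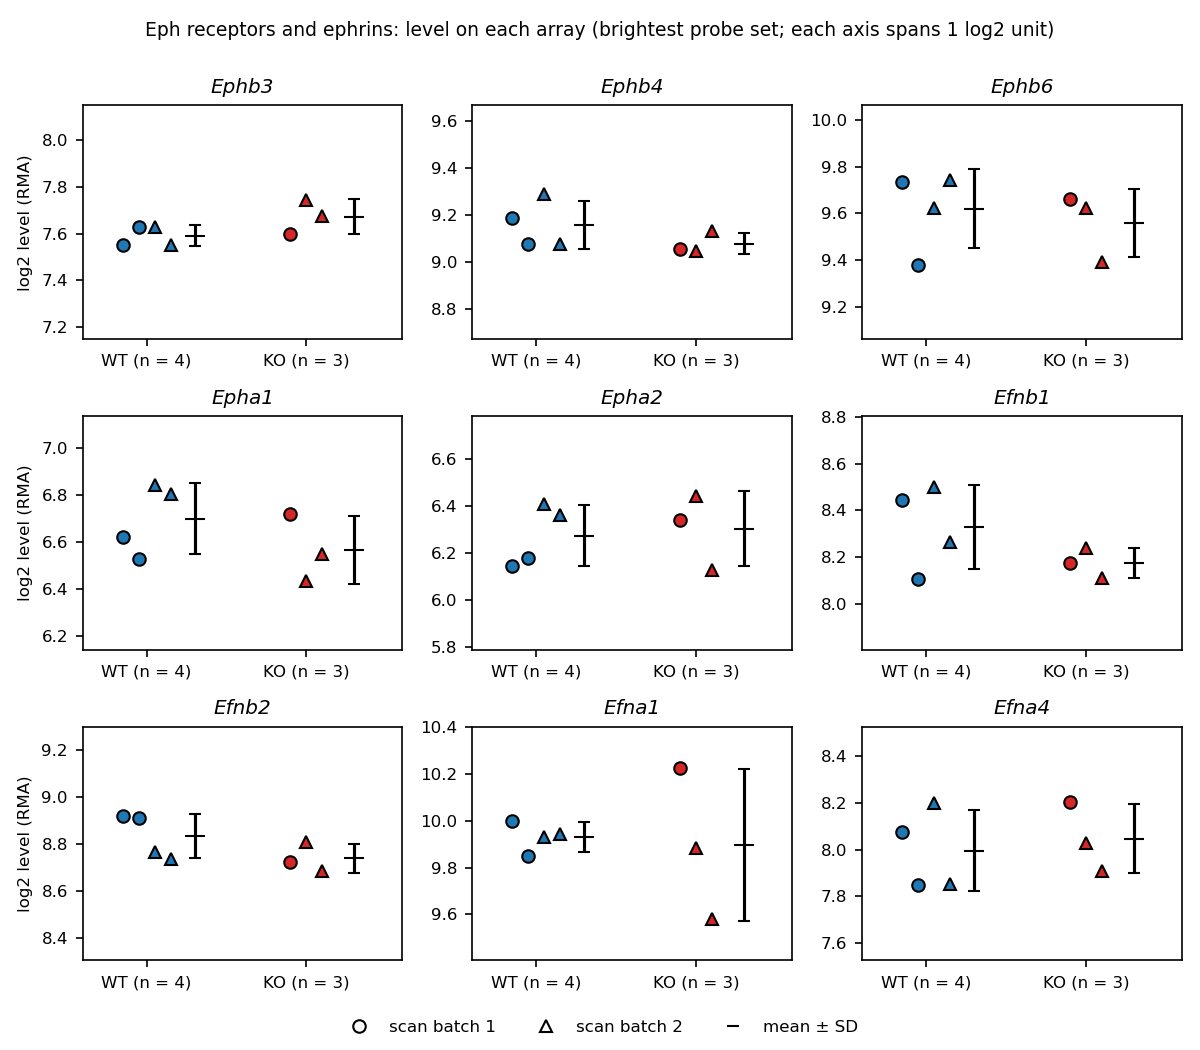
Log2 level (RMA) of the brightest probe set of each of the 9 genes on each array, WT in blue and KO in red, circles for scan batch 1 and triangles for scan batch 2, with the mean and SD of each genotype at the right; each vertical axis spans 1 log2 unit. The genotypes overlap in every panel, and KO arrays of Efna1 range from 9.58 to 10.23.

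Ephb3, the B-class receptor that keeps cells at the crypt base, varied least. It read 7.55, 7.63, 7.63 and 7.55 in WT and 7.60, 7.75 and 7.67 in KO. KO replicates 2 and 3 stood above all WT arrays and KO replicate 1 within them. The log2 difference was 0.07 (SE 0.08; 95% interval -0.11 to 0.26), with an adjusted p of 0.711 (limma). Its SD over the 7 arrays was 0.07 against a median of 0.14 over all genes. The genes with the most similar profile by the mean absolute difference of centred log2 levels over the 7 arrays were Hsd17b7, Sp3os and Anp32b, at 0.016, 0.020 and 0.022. That likeness is to a nearly flat profile, whose own mean deviation was 0.050, and 341 genes lay within 0.05 of it.

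Ephb4, the receptor of ephrin-B2, read 9.19, 9.08, 9.29 and 9.08 in WT. In KO it was 9.06, 9.05 and 9.13, which put 2 KO arrays below the WT range and KO replicate 3 inside it. The difference was -0.09 (SE 0.09; 95% interval -0.29 to 0.12; limma, adjusted p = 0.691). Its direction was the same in both scan batches, at -0.08 and -0.09. In the endothelial list the gene of smallest p was Cdh5, a cadherin of endothelial cell junctions. It read 6.42, 6.48, 6.73 and 6.38 in WT against 6.05, 6.17 and 6.11 in KO, a difference of -0.41 (limma, adjusted p = 0.353). Pecam1 lay between 6.14 and 6.38 in all arrays. The median difference of the 8 endothelial genes tested was -0.03, against -0.02 over all genes.

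Ephb6, a receptor whose kinase domain is inactive and which acts through its partners, had levels of 9.74, 9.38, 9.62 and 9.74 in WT. The KO arrays read 9.66, 9.62 and 9.39. The low arrays were WT replicate 2 and KO replicate 3, 1 of each genotype, and the others lay between 9.62 and 9.74. The difference between the genotypes was -0.06 (SE 0.12; 95% interval -0.34 to 0.21; limma, adjusted p = 0.842).

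Epha1, the first member of the family to be described, is an A-class receptor of epithelia. On its brightest probe set it read 6.62, 6.53, 6.85 and 6.80 in WT and 6.72, 6.43 and 6.55 in KO. The difference was -0.14 (SE 0.11; 95% interval -0.40 to 0.11; limma, adjusted p = 0.610), but the scan batches disagreed: it was 0.15 in batch 1, with its 1 KO array, and -0.33 in batch 2, where both KO arrays lay below both WT arrays. With array weights it was -0.31 (limma, adjusted p = 0.0556). The other Epha1 probe sets did not share this pattern, with differences of -0.04 and -0.02 and batch 2 values of -0.03 and 0.01. The former read the same 6.45 in WT replicates 1 and 4 and KO replicates 1 and 3, and the latter lay below the level filter. Epha2, a receptor of ephrin-A1 at epithelial contacts, read 6.15, 6.18, 6.41 and 6.36 in WT. Its KO levels were 6.34, 6.44 and 6.13, so that KO replicate 3 was the lowest and KO replicate 2 the highest of all arrays. The difference was 0.01 (SE 0.10; 95% interval -0.22 to 0.24; limma, adjusted p = 0.973), and the batches again had opposite signs, 0.18 and -0.10.

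Efnb1, a transmembrane ligand of EphB receptors encoded on the X chromosome, had the largest difference of the set on the brightest probe sets; over all 17, that of 1 dimmer Efnb2 probe set was larger, at 0.24. Its brightest probe set read 8.44, 8.11, 8.50 and 8.26 in WT and 8.18, 8.24 and 8.11 in KO. All KO arrays lay below 3 of the WT arrays, and WT replicate 2 was as low as KO replicate 3. The difference was -0.16 (SE 0.11; 95% interval -0.43 to 0.10; limma, adjusted p = 0.576), with -0.10 and -0.21 in the 2 scan batches and -0.23 without WT replicate 2. The probe set of intermediate level pointed the same way at -0.10 (SE 0.08). The dimmest, whose mean level fell below the level filter, pointed the other way at 0.15 (SE 0.07; unadjusted p = 0.0477, limma adjusted p = 0.485). It was the only 1 of the 17 probe sets of the set with an unadjusted p under 0.05, against 10.2% of all probe sets.

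Efnb2, the transmembrane ligand of Ephb4, was read by 4 probe sets that did not give 1 direction. On the brightest the WT arrays stood at 8.92, 8.91, 8.77 and 8.74 and the KO arrays at 8.72, 8.81 and 8.69, a difference of -0.08 (SE 0.09; 95% interval -0.28 to 0.12; limma, adjusted p = 0.703). The other 3 probe sets had differences of 0.05, 0.24 and 0.11, with SE of 0.15, 0.18 and 0.15. Within scan batch 1 these 3 were lower in KO replicate 1 than in the WT mean, by -0.32, -0.23 and -0.29, and within scan batch 2 they were higher in KO, by 0.30, 0.56 and 0.37. On the Efnb2 probe set with the widest spread WT replicates 3 and 4 read 6.69 and 7.11, and the other 5 arrays lay between 7.31 and 7.55.

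The ephrin-A ligands are attached to the membrane by a lipid anchor. Efna1, the ligand of EphA2, read 9.999, 9.85, 9.93 and 9.94 in WT and 10.23, 9.89 and 9.58 in KO. Its WT arrays were close together (SD 0.06, n = 4), while the KO arrays held both the highest and the lowest value of the 7 (SD 0.32, n = 3). The difference was -0.00 (SE 0.13; 95% interval -0.30 to 0.29; limma, adjusted p = 0.998), made up of 0.30 in scan batch 1 and -0.20 in scan batch 2. The dimmer Efna1 probe set had a difference of -0.16 (SE 0.10; limma, adjusted p = 0.582). Efna4, a further ligand of EphA receptors, read 8.08, 7.85, 8.20 and 7.85 in WT. It stood at 8.20, 8.03 and 7.91 in KO, inside the WT range but for KO replicate 1. That array lay just above the highest WT array, at 8.203 against 8.199. Its difference was 0.06 (SE 0.12; 95% interval -0.23 to 0.35; limma, adjusted p = 0.857).

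**Figure D2:**
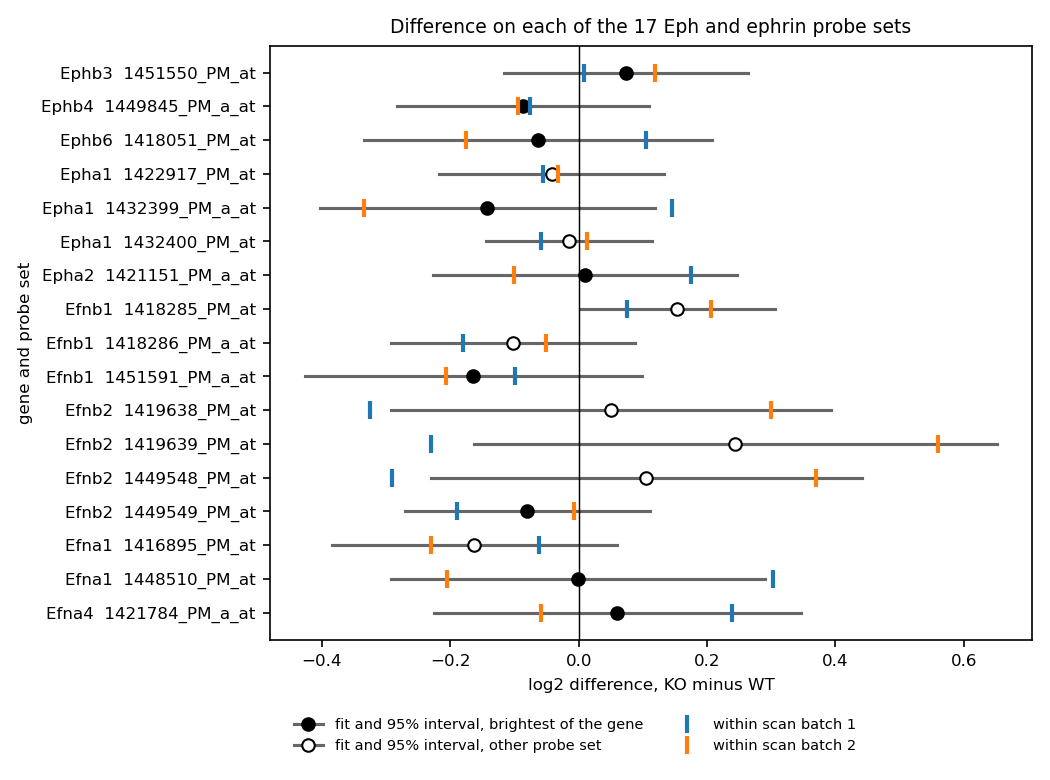
Log2 difference, KO minus WT, on each of the 17 probe sets; circles and lines are the fit with scan batch and its 95% interval, filled for the brightest probe set of a gene, and the blue and orange ticks are the differences within scan batch 1 and scan batch 2. Intervals span 0 except that of the dimmest Efnb1 probe set. Ticks lie on opposite sides of 0 for 3 Efnb2 probe sets and for the dimmest of Epha1. They also do so for the brightest probe sets of Ephb6, Epha1, Epha2, Efna1 and Efna4.

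Over the 17 probe sets 7 differences lay above 0 and 10 below, as did 57% of all probe sets, with a median of -0.02, the same as over all 28898 probe sets. By limma 0 of 17 were called, against a background of 0%, and 0 of 17 were free of overlap, against 5.27%. Between the scan batches, 0 of the 9 genes were called (batch 2 against batch 1) and 0 at an unadjusted p under 0.05, against 0% and 13.3% of all genes. The largest batch difference was -0.19 (SE 0.13), that of Efna1. Within scan batch the signs of the genotype difference agreed for 4 of the brightest probe sets (Ephb3, Ephb4, Efnb1 and Efnb2) and were opposite for the other 5.

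The arrays that stood low were shared between several of the genes. WT replicate 2 had the lowest level for 3 of the 9 genes and KO replicate 3 for another 3, and the mean of the 9 genes relative to all arrays was -0.08 and -0.12 there, against -0.00 to 0.10 in the other 5. The same 2 arrays carried Y-linked RNA: Eif2s3y was at 8.92 and 9.02 in them and between 4.17 and 4.29 in the others. Xist, expressed from the inactive X chromosome, was at 6.89 and 5.05 in them and between 11.08 and 11.45 elsewhere. They are of different genotypes and scan batches. Both were below all other arrays for Ephb6, Efnb1 and Efna1, 3 of 9 genes, as for 4.62% of all genes. A term for Y-linked signal was added to the fit once the data had been seen, and its estimate ran from -0.31 (SE 0.09) for Efna1 and -0.29 (SE 0.08) for Ephb6 to 0.03 (SE 0.09) for Ephb3. It was -0.21 for Efna4, -0.20 for Efnb1 and -0.18 for Epha2, and -0.13 to 0.01 for the other 3 genes. The adjusted p was 0.535 or more for each of the 9 (limma). The genotype difference beside it was -0.14 (SE 0.10) for Efnb1 and 0.03 (SE 0.08) for Efna1. On the 5 arrays without Y-linked signal the Efnb1 levels of KO and WT did not overlap, nor did those of Ephb4, as was so for 22.7% of all genes. There the difference of Efnb1 was -0.20 (limma, adjusted p = 0.610).

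**Figure D3:**
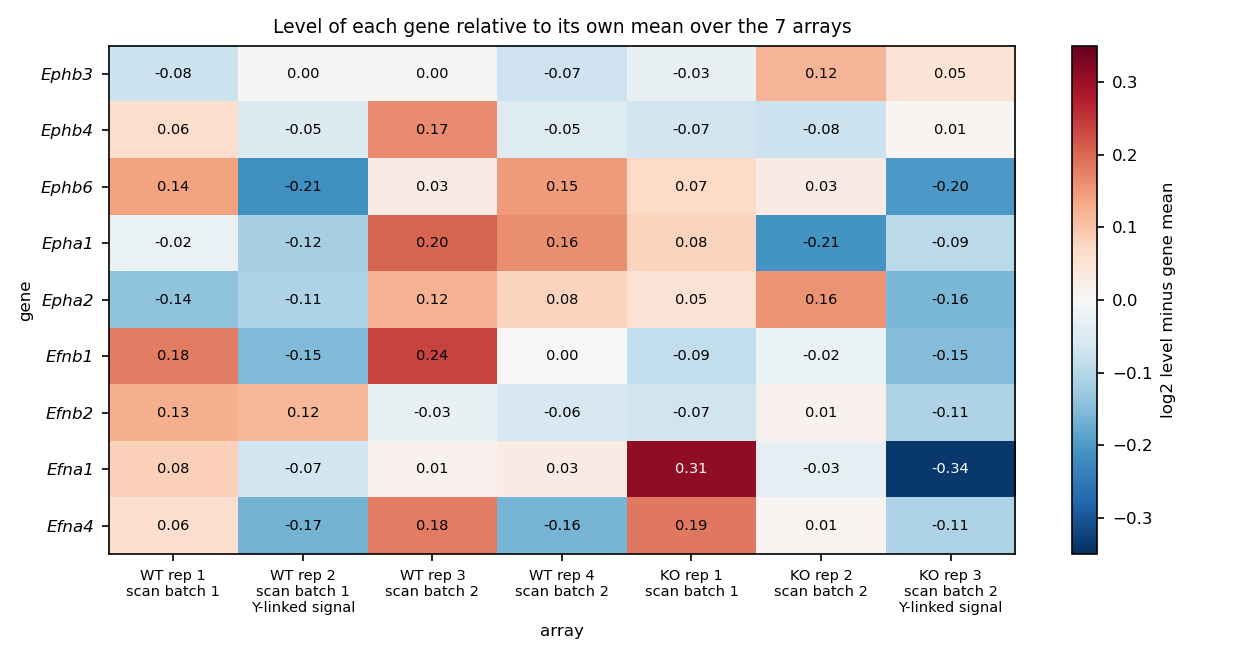
Log2 level of each gene (rows) on each array (columns) minus the gene's mean over the 7 arrays, with genotype, scan batch and Y-linked signal given under each column. WT replicate 2 and KO replicate 3 are low for Ephb6, Efnb1 and Efna1, and Efna1 runs from -0.34 to 0.31 among the KO arrays.

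The rest of the family gave 0 calls as well. Of 12 further Eph and ephrin genes 11 had a probe set, 5 receptor genes (Epha5, Epha6, Epha7, Epha8 and Ephb1) lay below the level filter, and 6 were tested. Epha3, an A-class receptor best known from the nervous system, read 5.90, 5.98, 6.19 and 6.41 in WT and 5.87, 5.98 and 5.99 in KO. It was the only 1 of the 6 with an unadjusted p under 0.05, at -0.22 (SE 0.08, limma adjusted p = 0.414), with KO inside or just below the WT range. Between the plain means its difference was -0.17, with an exact permutation p of 0.286. The scan batch term of Epha3 was larger, at 0.27 (SE 0.08). Without a term for scan batch 0 of the 6 had an unadjusted p under 0.05, against 7.18% of all genes. The other 3 probe sets of Epha3 lay below the level filter and differed by at most 0.01 in size. Epha4, which binds ligands of both classes, had a difference of 0.16 (SE 0.10), and Epha10, Efna2, Efna5 and Efnb3 lay between -0.10 and -0.07.

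Among the proteins that carry Eph signals into the cell none was called. The list of adaptors and kinases had 20 genes tested, with 0 called and a median of -0.04 against -0.02 over all genes. At an unadjusted p under 0.05, 3 were higher and 2 lower, against 7.14% and 4.26% of all genes. In the fit without a term for scan batch 0 were higher and 1 lower, against 7.18% of all genes in either direction. With array weights 3 of the 20 were called, against 10.7% of all genes. Grb10, an adaptor that binds activated receptors, read 7.17, 6.64, 6.96 and 7.31 in WT and 6.42, 6.52 and 5.88 in KO, all KO arrays below all WT arrays. Its difference was -0.75 (SE 0.20; limma, adjusted p = 0.388), and its other 2 probe sets were at -0.37 and -0.17. Yes1, a Src family kinase, read 7.38, 7.30, 6.86 and 6.57 in WT and 7.49, 7.14 and 7.13 in KO, with overlap. Its difference was 0.31 in the fit with scan batch (SE 0.10; limma, adjusted p = 0.409) and 0.22 between the plain means. The scan batch term was larger, at -0.52 (SE 0.10). With array weights, where 10.7% of all genes were called, the adjusted p of Yes1 was 0.0478 (limma).

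Partners of ephrins and the proteases that shed them numbered 16 tested genes, with 2 higher and 2 lower at an unadjusted p under 0.05 (7.14% and 4.26% of all genes), 0 called and a median of -0.01. Tjp1, the tight junction protein ZO-1, read 8.43, 8.55, 7.81 and 8.14 in WT. Its KO arrays, at 8.91, 8.75 and 8.73, lay above all of these, with a difference of 0.63 (SE 0.12; limma, adjusted p = 0.329). Sdcbp, the PDZ protein syntenin that binds the tail of ephrin-B, read 9.67, 9.81, 9.46 and 9.62 in WT against 9.93, 9.86 and 9.87 in KO, a difference of 0.27 (SE 0.08; limma, adjusted p = 0.391). Without overlap, 2 of the 16 were higher in KO (Tjp1 and Sdcbp) and 2 lower, against 5.91% of all genes in either direction. The 2 lower were Dvl1, at -0.29 (SE 0.11, limma adjusted p = 0.414), and the protease Adam17, at -0.12 (SE 0.07, limma adjusted p = 0.551). The ephrin-cleaving protease Adam10 was at -0.08 (SE 0.11) and the junction protein Cdh1 at 0.11 (SE 0.07), both with overlap. With array weights 3 of the 16 were called, against 10.7% of all genes.

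Ephb3 can be set beside other Wnt targets of the crypt base. Of 18 tested 15 had a difference below 0, against 56.1% of all genes, with a median of -0.08 against -0.02. At an unadjusted p under 0.05, 1 was lower, against 4.26%, and 0 were called. Without 1 array, 12 to 15 lay below 0. In scan batch 1, with its 1 KO array, 11 lay below 0, with a median of -0.04. In scan batch 2, 15 did, with a median of -0.13. The mean level of the 19 measured targets overlapped between the genotypes, at 9.51 to 9.68 in WT and 9.45 to 9.57 in KO. Lef1, a transcription factor that partners beta-catenin, read 9.57, 9.18, 9.39 and 9.14 in WT against 9.09, 8.91 and 8.82 in KO, a difference of -0.35 (SE 0.12; limma, adjusted p = 0.414). Nkd1, a feedback inhibitor of Wnt signalling, was at -0.24 (SE 0.11), and the stem cell receptor Lgr5 at -0.07 (SE 0.16). Ephb3, at 0.07, lay on the other side of 0 from most of them, within its interval of -0.11 to 0.26. Markers of the surface epithelium, where ephrin-B is high, had a median of 0.26 over 14 genes with 2 higher at an unadjusted p under 0.05, against 7.14% of all genes, and 0 called. KO replicate 2 stood apart: the mean of the 16 measured markers was 8.42 there, 7.58 and 7.85 in the other KO arrays and 7.44 to 7.85 in WT. Without KO replicate 2 the median was 0.02, and without WT replicate 4 it was 0.06. Within scan batch 1 the median of the 14 genes was 0.005, with 7 above 0 and 7 below, and within scan batch 2 it was 0.35. KO replicate 2 also had the highest mean of the fibroblast markers, 6.72, with WT replicate 3 at 6.71. Markers of goblet and deep crypt secretory cells had a median of 0.32 over 8 genes, 7 of them above 0, as were 5630 of all 12822 genes. Of the 8, 1 was higher at an unadjusted p under 0.05 (7.14% of all genes) and 0 were called. The mean level of the 11 measured secretory markers was 7.92 to 8.37 in KO, 7.90 to 8.22 in 3 WT arrays and 7.49 in WT replicate 1, which stood lowest. Without 1 array the median of the 8 genes was lowest on leaving out WT replicate 4, at 0.18, and highest on leaving out KO replicate 1, at 0.59. Within scan batch 1, with its 1 KO array, this median was 0.004, with 4 genes above 0 and 4 below. Within scan batch 2 it was 0.59. The part of such cells in the Eph and ephrin levels was not tested.

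**Figure D4:**
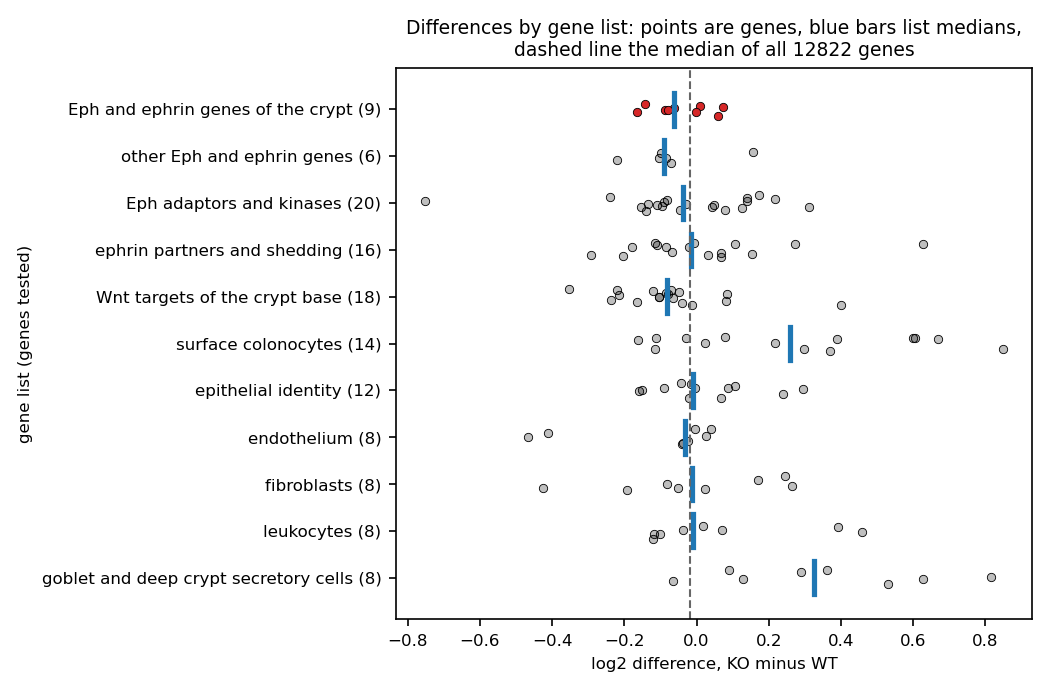
Log2 difference, KO minus WT, of each tested gene (points) by gene list, with the list median as a blue bar and the median of all 12822 genes as a dashed line. The 9 Eph and ephrin genes of the crypt (red) lie between -0.16 and 0.07, while single genes of the signalling lists reach -0.75 and 0.63.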

How the data were processed

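The 4 WT and 3 KO samples were hybridised to Affymetrix mouse arrays. Each deposited column holds the log2 levels of 1 array, which the authors obtained with RMA (background correction, normalization across arrays, 1 value per probe set), per the submitters' processing notes. The sources used here name no version and no other step. Of 45141 probe sets, the platform annotation gives 1 gene symbol for 28898, several for 551 and none for 15692; 28689 symbols were matched to RefSeq by gene number. For each gene the probe set with the highest mean was used, and the lowest 25% of genes (at or below 5.28) were left out, which left 12822. The median level of an array lay between 5.96 and 6.00, and the number of arrays limits the precision.

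Genotypes were compared by limma 3.58.1 under R 4.3.3, by lmFit and eBayes with a trend and with scan batch as covariate; p-values are two-sided, adjusted by Benjamini-Hochberg over all genes, and called at 0.05; each probe set was also fitted without the filter, over all 28898. Scan batch 1 held 2 WT arrays and 1 KO array, and the fit left 4 residual degrees of freedom. Intervals are 95% intervals of that fit. The exact permutation test over 35 splits cannot give a p below 0.0286. The fit was tested on simulated data. The genes of the set and the gene lists were chosen with earlier results of these data known. A rule covered the set, Mex3a, tested family members and the genes of smallest p in the signalling and marker lists. It also covered Lgr5, Epcam and the profiles nearest to Ephb3. Of the genes of smallest p in the marker lists the text names only some. Ramp2, named for its level, and Tek, Emcn, Kdr, Ptprc, Cd3e and Csf1r lie outside that rule. Adam10, Adam17, Cdh1, Dvl1, Pecam1 and the sex-linked genes were chosen after their values were seen. One list of signalling genes is not reported here. Alternatives were the batch term, each batch alone, the filter, the choice of probe set, array weights, the eBayes settings, quantile normalization, leaving out each array, and 2 settings for Y-linked signal added after seeing the data.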

Additional observations from a re-analysis of the deposited data

How the results depend on the processing

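Under all 20 alternatives 0 of the Eph and ephrin genes tested were called; 9 were tested in each, but 7 with the lowest 50% of genes left out, where Epha1 and Epha2 were not tested. With array weights limma called 1370 genes in all (10.7%), and without 1 array 0 to 2. Among the genes named above under the rule, array weights brought adjusted p-values (limma) of 0.0269 for Mex3a, Tjp1 and Cdh5, 0.0274 for Sdcbp and 0.0298 for Fbln1. They were 0.0317 for Lef1, 0.0341 for Nkd1 and 0.0478 for Yes1. The count of the set at an unadjusted p under 0.05 was 1 in scan batch 2 only (Epha1; 24.4% of all genes), 2 with array weights (Epha1 and Efnb1; 31.8%) and 0 to 1 without 1 array (5.57% to 19.7%). The count without overlap was 6 in scan batch 1 only (58.8%), 4 in scan batch 2 only (57.2%), 1 with quantile normalization (7.69%), 2 on the arrays without Y-linked signal (22.7%) and 0 to 1 without 1 array (7.46% to 19.2%). Leaving out KO replicate 1, the only KO array of scan batch 1, gives the batch 2 difference by construction. No paired analysis was possible because the genotypes share no number in the sample titles; the replicate numbers used here follow accession order.

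Ephb3, Ephb4 and Efnb1 kept their sign in all settings, with ranges of 0.008 to 0.12, -0.16 to -0.03 and -0.24 to -0.04. Signs turned as follows, and the cause was not tested. In scan batch 1 only, Ephb6 was at 0.105, Epha1 at 0.146, Efna1 at 0.304, Efna5 at 0.0092, Lgr5 at 0.105, Hnf4a at -0.0022 and Anp32b at -0.0504. In scan batch 2 only, Epha2 was at -0.101, Efna4 at -0.0587 and Epcam at 0.0599. With array weights, Epha2 was at -0.0278, Efna4 at -0.0976 and Epcam at 0.0343. With the mean of all probe sets, Efnb2 was at 0.0800, Lgr5 at 0.0337, Epcam at 0.0451 and Hsd17b7 at -0.0243. With the probe set of largest variance, Efnb2 was at 0.244, Epha4 at -0.0204, Epcam at 0.0943 and Hsd17b7 at -0.0449. For Efna1 the value was 0.0295 with Y-linked signal as covariate and 0.0686 on the arrays without it, where Epcam was at 0.0159. Without 1 array, Ephb6 lay between -0.175 and 0.0220, Epha2 between -0.101 and 0.116, Efna1 between -0.205 and 0.126, Efna4 between -0.0587 and 0.176, Lgr5 between -0.189 and 0.0470 and Epcam between -0.0355 and 0.0599.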

Other observations

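The difference between Ephb3 and Efnb1, a receptor and a ligand that meet at crypt cell contacts, can be followed across arrays relative to its own mean. It was -0.26, 0.16, -0.23 and -0.07 in WT replicates 1 to 4 and 0.06, 0.14 and 0.20 in KO replicates 1 to 3. The KO arrays lay above 3 of the WT arrays, and WT replicate 2 lay among them. This pair was chosen after its values were seen and carries no test.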
